A study of Mus musculus with 12 samples.

Results

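The heat shock chaperones described here are 10 mouse genes, found by their symbols among the 50433 gene rows of a table on renal tubular epithelial cells (TECs) and the 50434 gene rows of a table on blood neutrophils (polymorphonuclear cells, PMNs). All 10 had a row in both tables and all 10 passed the filter on low counts in both cell types. They comprise 6 genes that heat and other stress can induce (Hspa1a, Hspa1b, Hsp90aa1, Hspb1, Hsph1 and Dnajb1), 3 that cells make constantly (Hspa8, Hsp90ab1 and Dnaja1) and their transcription factor Hsf1.

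The samples came from male wild-type C57BL/6J mice with acute kidney injury from ischemia/reperfusion injury (IRI), in which the renal pedicles were clamped for a time and then released. One group received glutamine, given intravenously as the dipeptide alanyl-glutamine after reperfusion, and the other received the vehicle saline. Cells were taken 24 hours after the operation. TECs were sorted from kidney as CD45-negative and Prominin-1-positive cells, and PMNs came from peripheral blood, with 3 libraries per treatment in each cell type. All 12 libraries came from operated mice, so no comparison here is with an uninjured kidney. No source used here ties a PMN library to the mouse of a TEC library, and p-values measure the spread between these libraries only.

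Chaperones of the HSP70 family bind exposed stretches of unfolded proteins and release them in a cycle driven by ATP. J-domain proteins such as Dnajb1 and Dnaja1 deliver the client and start ATP hydrolysis, and Hsph1 (HSP110) exchanges the nucleotide. HSP90 proteins take over near-folded clients such as kinases and steroid receptors, and the small heat shock protein Hspb1 (HSP25 in mouse, HSP27 in humans) holds unfolding proteins without ATP. HSF1 is held inactive in unstressed cells, and under stress it forms trimers that bind heat shock elements, repeats of the unit GAA in alternating orientation. Glutamine is known to raise inducible HSP70 in stressed cells. The study reported more HSP70 protein with glutamine in kidneys after IRI and in cultured tubular epithelial cells. Those are protein measurements, while the values here are transcripts. The comparison below asks whether the transcripts of these genes differed between glutamine and vehicle.

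The DNA before the start sites is shown first because a pair of members shares it almost entirely. The RefSeq promoter table (GRCm38.p6) held 6 of the 10 members, and the 250 bases before each start were searched on both strands for the heat shock element pairs GAANNTTC and TTCNNGAA, each its own reverse complement. At least 1 pair stood before 5 of these 6 genes, against 14.55% of all 27025 genes in the table, and the exception was Dnajb1. These letters are a description of the window and not a measured binding site. In the sequences below, capitals mark the pairs.
Hspa1a, chr17:34972157-34972406, minus strand: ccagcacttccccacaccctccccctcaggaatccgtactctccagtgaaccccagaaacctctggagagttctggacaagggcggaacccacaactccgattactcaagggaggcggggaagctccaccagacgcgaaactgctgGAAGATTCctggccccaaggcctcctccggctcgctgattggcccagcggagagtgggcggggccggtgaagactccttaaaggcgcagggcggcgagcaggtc
Hspa1b, chr17:34959239-34959488, minus strand: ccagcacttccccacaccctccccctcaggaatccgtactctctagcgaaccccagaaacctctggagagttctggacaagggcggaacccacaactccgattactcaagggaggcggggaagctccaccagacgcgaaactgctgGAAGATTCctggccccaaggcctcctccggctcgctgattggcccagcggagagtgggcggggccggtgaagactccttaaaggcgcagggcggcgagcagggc
The Hspa1a and Hspa1b windows differed at 3 of 250 bases. With positions counted from 1 at the 5′ end, and the Hspa1a base written first, the differences were C44T, T47C and T249G. Both carried the same GAANNTTC pair 104 bases before the start. The pairs of the other members are given with 10 bases on each side, since they stand at different distances from their starts.
Hspb1, 117 bases before the start, chr5:135887792-135887819, plus strand: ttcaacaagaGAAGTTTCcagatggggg
Hspb1, 97 bases before the start, chr5:135887812-135887839, plus strand: gatgggggcaGAACCTTCctggccccgc
Hsph1, 33 bases before the start, chr5:149636352-149636379, minus strand: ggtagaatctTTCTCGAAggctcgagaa
Dnaja1, 124 bases before the start, chr4:40722334-40722361, plus strand: aaagcctctaGAAAATTCtacgaggctc
The TTCNNGAA pair of Hsph1 stands alone in that orientation among these members, and Dnaja1 carried its pair before only 1 of its 3 listed starts. GAANNTTC was found in 6.694% and TTCNNGAA in 7.166% of all 32851 promoter windows. A run of 3 units in alternating orientation, 1 more than a pair, was in 0.4657% of windows.

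The TEC libraries held 5397370 to 10223461 estimated counts, with glutamine replicate 2 the shallowest, and the PMN libraries 20225246 to 21878446. Levels are counts per 1000000 (CPM) after scaling by edgeR's trimmed mean of M-values (TMM). TECs had their sort marker Prom1 at 64.6 to 83.5 CPM and 8 of 8 proximal tubule genes, summing to 3639 to 5800.2 CPM. Ptprc, which encodes CD45, was at 0.102 to 2.74 CPM in TECs. Other leukocyte transcripts were higher there, with macrophage and dendritic cell genes at a sum of 37.3 to 97.8 CPM. Neutrophil genes summed to 244 CPM in glutamine replicate 2 and 239 CPM in vehicle replicate 3, the highest, and to 101 CPM in vehicle replicate 5, the lowest. The TEC libraries also held 4 of 4 thick ascending limb genes at a sum of 1041 to 2274 CPM and 6 of 6 endothelial genes at 331 to 538 CPM. PMN libraries had neutrophil genes (S100a8, S100a9, Retnlg and 5 others) at a sum of 18929 to 67292 CPM. Of this list Camp and Ltf were at 0 in glutamine replicates 2 and 3 and vehicle replicate 1. In the other PMN libraries Camp was at 0.0456 to 51.4 CPM and Ltf at 0.158 to 32.5 CPM. The PMN libraries also held 8 of 8 macrophage and dendritic cell genes at a sum of 7418 to 21199 CPM. C1qa was among them at 287 to 2572 CPM, and these genes go against a label of neutrophils alone. Vehicle PMN replicate 1 had Umod, a gene of the thick ascending limb, at 1025 CPM, and vehicle PMN replicate 2 had endothelial genes at a sum of 2161 CPM with 6 of 6 present. In the other PMN libraries Umod was at 0.613 to 33.4 CPM, and the endothelial sum was 2.71 to 60.8 CPM outside replicate 2. In bulk RNA, fewer cells of a type and less RNA per cell cannot be told apart.

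In TECs no member passed the test between glutamine and vehicle. edgeR's quasi-likelihood test called 0 of 14734 genes at a Benjamini-Hochberg adjusted p below 0.05 (0%) and 0 of the 10 members. At an unadjusted p below 0.05, 1878 genes passed (12.7%), and none of the 10 members did. DESeq2 called 245 of the 12826 genes to which it gave an adjusted p (1.91%) and none of the members, and limma-voom called 0 of 14734 genes (0%). The log2 fold change, glutamine over vehicle, was above 0 for 7 of 10 members, against 50.6% of all genes tested. Among the inducible members 5 of 6 were above 0 with a median of 0.24, and among the constitutive members 1 of 3 with a median of -0.01, beside a median of 0.01 over all genes. With scaling factors computed without predicted, Rik and sensory receptor genes, which put the median of all genes at 0.06, all 3 constitutive members were above 0.

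**Figure D1:**
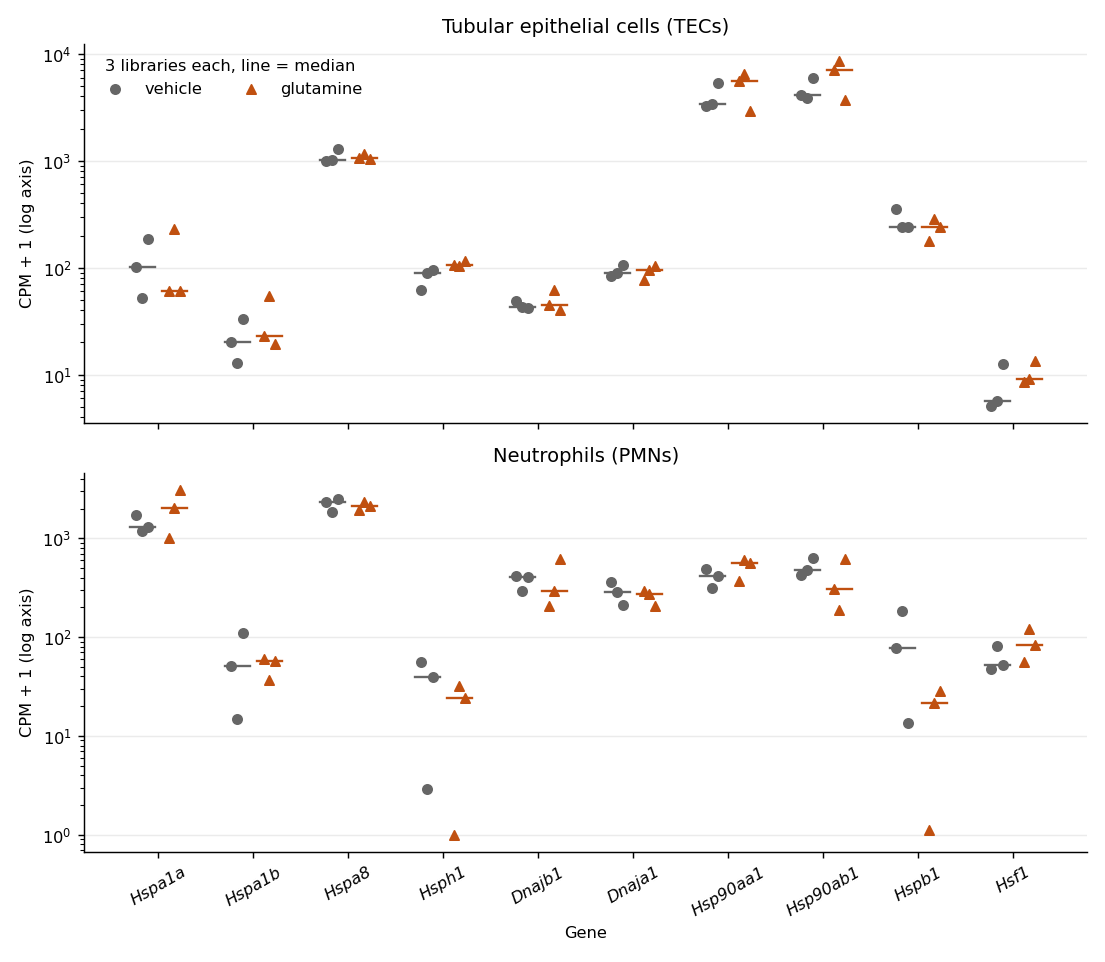
Level of each member in CPM, with 1 added and on a log axis, in TECs (top) and PMNs (bottom). Points are libraries, 3 with vehicle (circles) and 3 with glutamine (triangles), and lines are group medians. Glutamine and vehicle overlap for every member except Hsph1 in TECs.

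The inducible HSP70 genes Hspa1a (chr17:34969190-34972156, GRCm38, minus strand) and Hspa1b (chr17:34956436-34959238, minus strand) encode nearly the same protein and lie side by side, as single-transcript genes in GENCODE M21. In TECs Hspa1a had 59.1, 229.6 and 60.1 CPM in glutamine replicates 1, 2 and 3, and 99.9, 51.7 and 185 CPM in vehicle replicates 3, 4 and 5. The highest library of each group stood well above its other libraries, and the groups overlapped. The log2 fold change was 0.04 with a standard error (SE) of 0.55 and a 95% interval of -1.16 to 1.25 (edgeR adjusted p = 0.982). Without glutamine replicate 2 it was -0.92, and without vehicle replicate 5 it was 0.60, so the sign rested on single libraries.

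Hspa1b had 21.9, 53.4 and 18.4 CPM in TECs with glutamine and 19.0, 11.7 and 32.4 CPM with vehicle. The libraries highest in Hspa1a, glutamine replicate 2 and vehicle replicate 5, were also the highest in Hspa1b. Its log2 fold change was 0.56 with an SE of 0.45 and an interval of -0.43 to 1.55 (edgeR adjusted p = 0.632). Without glutamine replicate 2 it was -0.07, and without vehicle replicate 5 it was 1.004. Of the 50-base windows of the Hspa1a transcript, 58.8% also occur in Hspa1b, so reads of the length sequenced here often fit both genes and the split between them is an estimate. With the counts of both added before the fit, the log2 fold change was 0.14. The ratio of Hspa1b to Hspa1a counts was 0.370, 0.233 and 0.307 with glutamine and 0.191, 0.227 and 0.175 with vehicle. These groups did not overlap, by a margin of 0.233 against 0.227, and this ratio was looked at after the values were known and has no test.

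The libraries highest in inducible HSP70 were also the highest in globin transcripts. Globin and platelet genes (Hbb-bs, Hba-a1, Pf4, Ppbp and Itga2b, 5 of 6 listed genes with a row) summed to 637, 2604 and 356 CPM in glutamine replicates 1, 2 and 3, and to 556, 312 and 1621 CPM in vehicle replicates 3, 4 and 5. None of the 5 was at 0 in any TEC library. Nearly all of each sum was the globins Hbb-bs and Hba-a1, and the platelet genes followed only in part. Pf4 and Ppbp were highest in glutamine replicate 2, at 8.03 and 10.6 CPM. In vehicle replicate 5 they were at 5.09 and 3.67 CPM, below vehicle replicate 3 at 7.79 and 3.75 CPM. Itga2b was highest in vehicle replicate 5 at 16.9 CPM, but glutamine replicate 2 was the lowest of its group at 4.42 CPM. The part of blood cells in the Hspa1a level was not tested. Immediate-early genes that rise during tissue dissociation (Fos, Jun, Egr1 and 12 others) did not follow the pattern of Hspa1a. They summed to 2535 to 3755 CPM with glutamine and 3238 to 3459.8 CPM with vehicle.

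**Figure D2:**
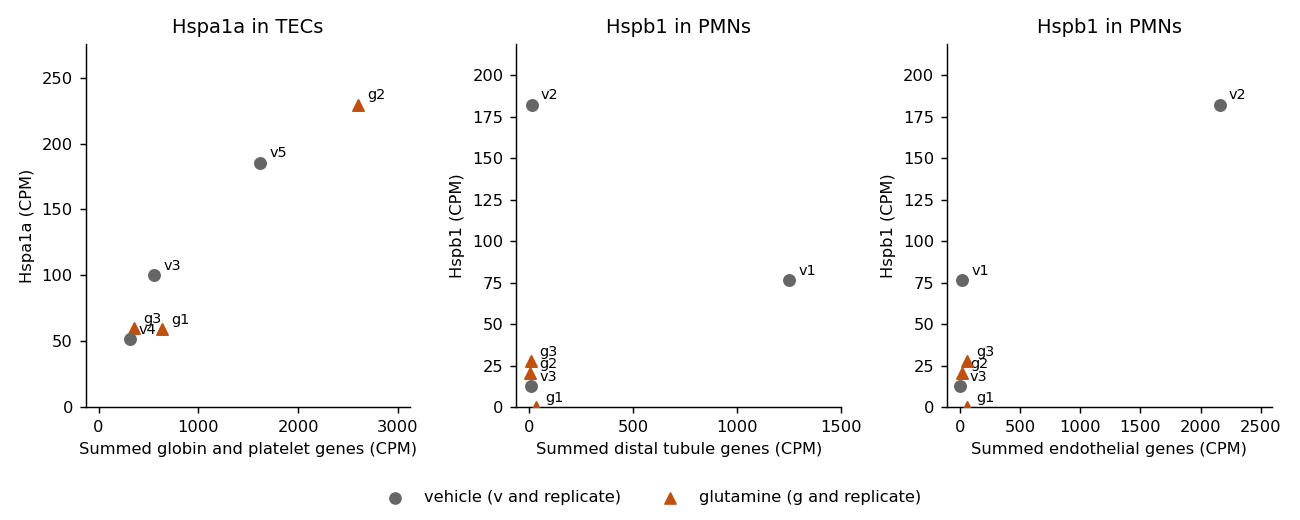
Hspa1a in TECs against the summed CPM of globin and platelet genes (left), and Hspb1 in PMNs against the sums of distal tubule genes (middle) and endothelial genes (right), 1 point per library. Glutamine replicate 2 and vehicle replicate 5 are high on both axes in TECs, where nearly all of the sum is globin. Vehicle PMN replicates 1 and 2 are the highest in Hspb1 and in distal tubule or endothelial genes.

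Hspa8 (HSC70, chr9:40800984-40810087, plus strand), the constitutive member of the family, varied little between TEC libraries. It had 1067, 1151 and 1045 CPM with glutamine and 988, 1018 and 1286 CPM with vehicle, a coefficient of variation of 10.1% over the 6 libraries against 66.0% for Hspa1a. Its log2 fold change was -0.01 (SE 0.19, 95% interval -0.43 to 0.41, edgeR adjusted p = 0.984). Summed Hspa1a and Hspa1b counts were 0.0759, 0.246 and 0.0751 of the Hspa8 counts with glutamine and 0.120, 0.0623 and 0.169 with vehicle. The mean log2 of this ratio was -3.16 ± 0.98 with glutamine and -3.21 ± 0.73 with vehicle (SD, n = 3), a difference of 0.05 that is far smaller than the spread between libraries. Its sign rested on single libraries, at -0.52 without glutamine replicate 2, -0.35 without vehicle replicate 4 and 0.37 without vehicle replicate 5. With Hspa1a alone in place of the sum it was -0.07, and with Hspa1b alone 0.53. Of the Hspa8 windows 74.8% occur in pseudogenes such as Gm15459, but each pseudogene sharing at least 10% that had a row held at most 0.0338% of the Hspa8 counts in TECs.

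Hsph1 (chr5:149614287-149636376, minus strand), the nucleotide exchange factor of the HSP70 cycle, was the only member whose groups did not overlap in TECs. It had 105, 103 and 114 CPM with glutamine, and 60.6, 89.0 and 95.2 CPM with vehicle. The glutamine libraries lay within a narrow range above all vehicle libraries. The log2 fold change was 0.39 (SE 0.22, 95% interval -0.09 to 0.88, edgeR unadjusted p = 0.103, adjusted p = 0.480), and with 1 library left out it ran from 0.21 without vehicle replicate 3 to 0.51 without vehicle replicate 5. Groups did not overlap for 2774 of the genes tested (18.8%), so 1 of 10 members is no more than the background. No other gene shares a 50-base window with Hsph1, and its estimate is free of that uncertainty.

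The J-domain proteins that serve HSP70 showed little spread. Dnajb1 (HSP40, chr8:83608193-83612653, plus strand), the inducible one, had 43.7, 60.9 and 39.5 CPM with glutamine and 47.9, 42.2 and 41.1 CPM with vehicle. Dnaja1 (chr4:40722150-40737149, plus strand), the constitutive one, had 76.5, 93.8 and 102 CPM with glutamine and 83.6, 88.3 and 104 CPM with vehicle. Glutamine replicate 2 was the highest library for Dnajb1, as it was for Hspa1a, while for Dnaja1 it was the third highest. The log2 fold changes were 0.13 (SE 0.23, interval -0.38 to 0.64, edgeR adjusted p = 0.843) for Dnajb1 and -0.02 (SE 0.21, interval -0.47 to 0.44, edgeR adjusted p = 0.980) for Dnaja1. Exons of Dnaja1 overlap those of Smu1 on the opposite strand, and no source used here states that strand was used in counting. Smu1 held 27.6% to 35.9% of the Dnaja1 counts in TECs and 15.7% to 66.5% in PMNs. The pseudogene Gm15542, which shares 15.74% of the Dnaja1 windows, held at most 0.101% of the Dnaja1 counts in TECs but 1.31% to 17.05% in PMNs, so the Dnaja1 level is less certain there.

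The HSP90 pair had the highest levels of all members in TECs, also per transcript length. Hsp90aa1 (HSP90α, chr12:110690605-110702728, minus strand), the stress-inducible form, had 5623, 6518 and 2915 CPM with glutamine and 3235, 3357 and 5300.1 CPM with vehicle. Hsp90ab1 (HSP90β, chr17:45567775-45573271, minus strand), the constitutive form, had 6995, 8522 and 3658 CPM with glutamine and 4075, 3897 and 5997 CPM with vehicle. Glutamine replicates 1 and 2 and vehicle replicate 5 were high for both genes, and glutamine replicate 3 was the lowest for both. Hsp90ab1 ranked between 8 and 21 among all genes of a library, and the pair took 0.617% to 1.39% of all counts. The log2 fold changes were 0.34 (SE 0.31, 95% interval -0.34 to 1.02, edgeR adjusted p = 0.671) for Hsp90aa1 and 0.46 (SE 0.30, interval -0.21 to 1.13, edgeR adjusted p = 0.552) for Hsp90ab1. Without glutamine replicate 3 these values were 0.61 and 0.73, and without glutamine replicate 2 they were 0.10 and 0.19.

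Although each HSP90 gene varied 2.24-fold or 2.33-fold between its lowest and highest TEC library, their ratio hardly did. Counts of Hsp90aa1 were 0.804, 0.765 and 0.797 of those of Hsp90ab1 with glutamine and 0.794, 0.862 and 0.884 with vehicle, a 1.16-fold range. The mean log2 ratio was -0.34 ± 0.04 with glutamine and -0.24 ± 0.08 with vehicle (SD, n = 3), and the difference was -0.10. The groups overlapped. Of the Hsp90aa1 windows 58.5% also occur in other genes, mainly the pseudogenes Gm12346 and Gm5844, against 4.49% of those of Hsp90ab1. Gm12346 held 0.886% to 1.85% of the Hsp90aa1 counts in TECs.

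**Figure D3:**
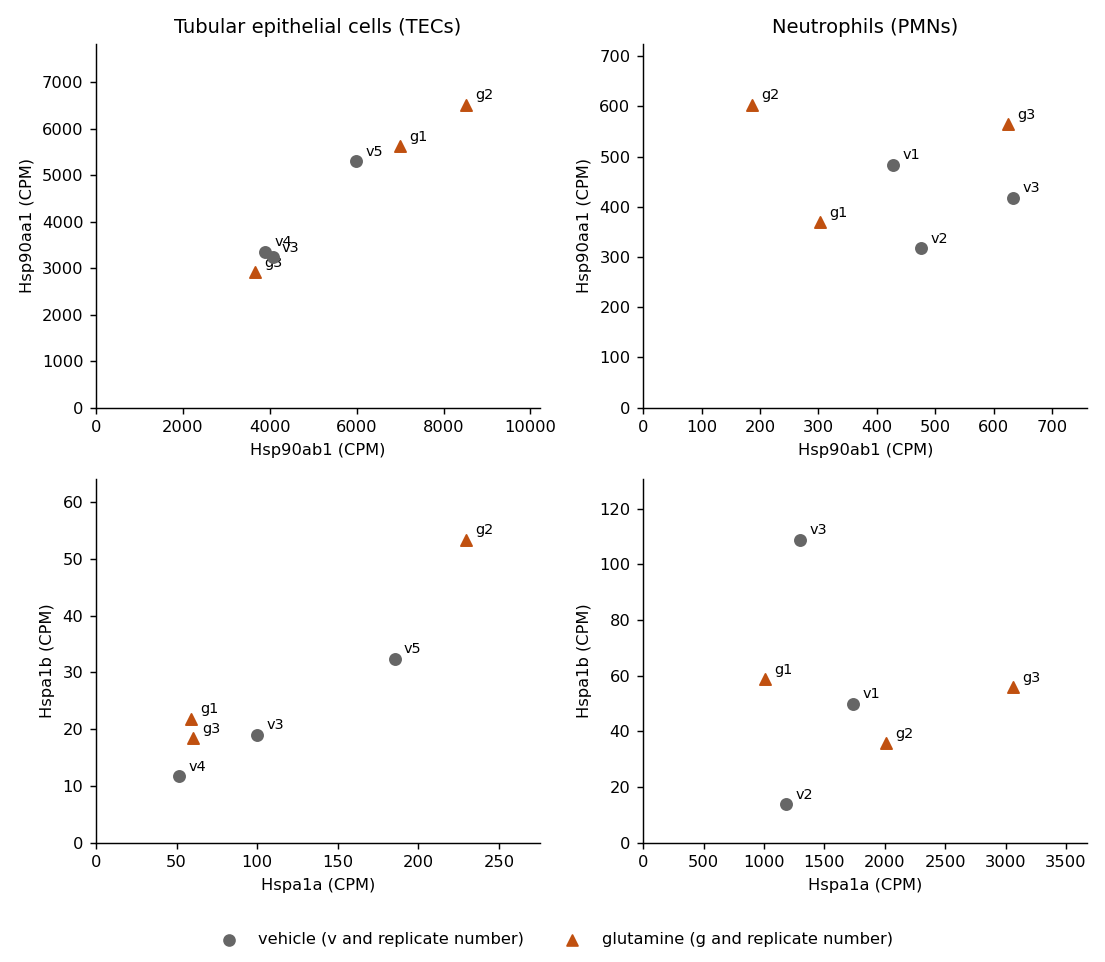
Levels in CPM of the HSP90 pair (top) and of Hspa1a and Hspa1b (bottom) in TECs (left) and PMNs (right), 1 point per library, labeled g or v for glutamine or vehicle with the replicate number. In TECs glutamine replicate 2 is the highest library for both members of each pair. In PMNs glutamine replicate 2 is the highest for Hsp90aa1 and the lowest for Hsp90ab1, while glutamine replicate 3 is the second highest for both.

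The small chaperone Hspb1 (chr5:135887919-135889563, plus strand) had 175, 285 and 237 CPM with glutamine and 353, 237 and 238 CPM with vehicle in TECs. The highest library was vehicle replicate 3 and the lowest glutamine replicate 1, and glutamine replicate 2 stood above the other 3, which lay close together. Its log2 fold change was -0.25 (SE 0.24, interval -0.79 to 0.29, edgeR adjusted p = 0.694), the only inducible member below 0. It was -0.04 without vehicle replicate 3, -0.08 without glutamine replicate 1 and -0.42 without glutamine replicate 2. Vehicle replicate 3 also had the highest sum of tubular injury genes (Havcr1, Lcn2, Krt20, Sox9 and Vcam1, 5 of 5 present in every TEC library). They summed to 5021 CPM there and to 3346 and 2202 CPM in vehicle replicates 4 and 5. In glutamine replicates 1, 2 and 3 the sums were 2745, 2569 and 2348 CPM. Havcr1 at 793 CPM and Lcn2 at 3599 CPM were highest in vehicle replicate 3. Krt20 at 520 CPM was lowest there, and Sox9 at 93.1 CPM and Vcam1 at 16.0 CPM lay within the range of the other TEC libraries. The part of tubular injury in the Hspb1 level was not tested. Of the Hspb1 windows 58.9% occur in the pseudogene Hsp25-ps1, which was at 0 in every library of both cell types. The regulator Hsf1 (chr15:76477422-76501913, plus strand) was the lowest member, at 7.57, 8.03 and 12.4 CPM with glutamine and 4.14, 4.66 and 11.6 CPM with vehicle, from 40 to 114 counts. Its log2 fold change was 0.46 (SE 0.47, interval -0.57 to 1.49, edgeR adjusted p = 0.703) and with 1 library left out it ran from 0.19 without glutamine replicate 3 and 0.20 without vehicle replicate 3 to 1.08 without vehicle replicate 5.

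Levels of different genes were compared per kilobase of the longest principal transcript. In TECs Hsp90ab1 led with 2192 ± 786 CPM per kilobase (SD, n = 6), ahead of Hsp90aa1 with 1369 ± 460.1, ranges that overlap. Hspa8 followed with 456 ± 46.0 and Hspb1 with 282 ± 66.1 CPM per kilobase. Hspa1a had 38.5 ± 25.4, Hsph1 24.8 ± 4.89, Dnaja1 16.3 ± 1.93 and Dnajb1 15.3 ± 2.63 CPM per kilobase, neighbors whose ranges over the 6 libraries overlap. Hspa1b had 9.33 ± 5.34 and Hsf1 3.87 ± 1.642 CPM per kilobase, and their ranges overlap too. The steps from Hsp90aa1 to Hspa8, from Hspa8 to Hspb1 and from Hspb1 to Hspa1a had no overlap. In PMNs the order was different at the top, with Hspa8 at 909 ± 105 and Hspa1a at 579 ± 255 CPM per kilobase ahead of Hsp90ab1 at 175 ± 70.1 and Hsp90aa1 at 140.0 ± 34.1. Hspa8 and Hspa1a overlapped in range, as did Hsp90ab1 and Hsp90aa1, and Hspa1a did not overlap Hsp90ab1. The tables were scaled separately, so levels in TECs and PMNs stand side by side with no test between them.

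In PMNs again no member passed the test. edgeR's quasi-likelihood test called 0 of 10130 genes (0%) and 0 of the 10 members, and at an unadjusted p below 0.05 it passed 346 genes (3.42%) and none of the members. DESeq2 called 304 of the 11123 genes to which it gave an adjusted p (2.73%) and none of the members, and limma-voom called 0 of 10130 genes (0%). The log2 fold change was above 0 for 4 of 10 members, against 50% of all genes tested, with 3 of 6 inducible and 0 of 3 constitutive members above 0. Under RLE scaling (the median of ratios to a reference library) 2 of 6 inducible members were above 0, and under upper-quartile scaling 1 of 3 constitutive members. No member had groups that did not overlap, which 10.5% of the genes tested had. All 10 edgeR adjusted p-values were 0.99996. The sort marker Ptprc had 754, 819 and 1150 CPM with glutamine and 564, 317 and 569 CPM with vehicle, groups that did not overlap. Its log2 fold change in PMNs was 0.91 (SE 0.33, edgeR unadjusted p = 0.028, adjusted p = 0.99996).

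Hspa1a had 1007, 2009.7 and 3065 CPM in PMNs with glutamine and 1738, 1184 and 1300.4 CPM with vehicle. Glutamine replicates 2 and 3 were the highest libraries and glutamine replicate 1 the lowest, so that the vehicle libraries lay inside the range of the glutamine libraries. The log2 fold change was 0.53 (SE 0.40, 95% interval -0.43 to 1.48, edgeR unadjusted p = 0.231), and with 1 library left out it ran from 0.10 without glutamine replicate 3 to 0.83 without glutamine replicate 1 (edgeR unadjusted p = 0.0232, adjusted p = 0.970). Glutamine replicates 2 and 3 also had the highest macrophage and dendritic cell sums, 18303 and 21199 CPM against 8399 CPM in glutamine replicate 1 and 7418, 11855 and 16826 CPM in vehicle replicates 1, 2 and 3. Compared with vehicle replicate 3, glutamine replicate 2 was higher in Cd74, H2-Ab1 and Csf1r and lower in Adgre1, C1qa, C1qb, C1qc and Cd68. The part of macrophages and dendritic cells in the Hspa1a level was not tested.

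Hspa1b had 58.7, 35.7 and 55.8 CPM with glutamine and 50.0, 13.8 and 109 CPM with vehicle, and its counts were 1.16% to 8.37% of those of Hspa1a. Hspa8 was again steady, at 1935, 2344 and 2108 CPM with glutamine and 2327, 1855 and 2493 CPM with vehicle (log2 fold change -0.06, SE 0.19, interval -0.51 to 0.38). The summed counts of Hspa1a and Hspa1b were 0.551, 0.873 and 1.48 of the Hspa8 counts with glutamine and 0.768, 0.646 and 0.565 with vehicle. In glutamine replicate 3 alone, the inducible genes had more counts than Hspa8. The mean log2 ratio was -0.16 ± 0.71 with glutamine and -0.61 ± 0.22 with vehicle (SD, n = 3), a difference of 0.45 within the spread of the glutamine libraries. It was 0.083 without glutamine replicate 3 and 0.80 without glutamine replicate 1.

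The HSP90 pair kept no fixed ratio in PMNs. Hsp90aa1 had 369, 603 and 565 CPM with glutamine and 484, 317 and 418 CPM with vehicle. Hsp90ab1 had 303, 187 and 625 CPM with glutamine and 428, 477 and 634 CPM with vehicle. Glutamine replicate 2 was the highest library for the first gene and the lowest for the second, while glutamine replicate 3 was the second highest for both. The ratio of their counts was 1.22, 3.23 and 0.904 with glutamine and 1.13, 0.665 and 0.659 with vehicle, a 4.90-fold range against 1.16-fold in TECs. The log2 fold changes were 0.34 (SE 0.32, interval -0.42 to 1.09) for Hsp90aa1 and -0.47 (SE 0.47, interval -1.59 to 0.66) for Hsp90ab1. With 1 library left out, Hsp90aa1 ran from 0.15 without glutamine replicate 2 to 0.50 without glutamine replicate 1. Hsp90ab1 ran from -1.08 without glutamine replicate 3 to -0.20 without glutamine replicate 2.

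In PMNs Hspb1 ran from near 0 to 182 CPM. It had 0.105, 20.5 and 27.6 CPM with glutamine, from 2 counts in replicate 1, and 76.7, 182 and 12.5 CPM with vehicle. Vehicle replicates 1 and 2 were the highest, the same libraries that held Umod or endothelial transcripts. The log2 fold change was -2.49 (SE 1.76, interval -6.66 to 1.68, edgeR unadjusted p = 0.200). Without vehicle replicates 1 and 2 it was 0.35 (SE 3.06), in a fit with vehicle replicate 3 alone, which is assumed to vary like the glutamine libraries, and in which the median over all genes was 0.58. These libraries were left out after seeing the data and are the highest in Hspb1, so the loss of the negative value follows from that choice. Distal tubule genes (thick ascending limb and distal convoluted tubule, 7 of 7 with a row) summed to 1026 and 227 CPM for the respective segments in vehicle replicate 1, and to 1.51 to 33.5 and 0 to 4.57 CPM in the other PMN libraries. In vehicle replicate 1 nearly all of the first sum was Umod at 1025 CPM, with Slc12a1 at 0.401, Kcnj1 at 0.251 and Cldn16 at 0 CPM, and the second was Slc12a3 at 193 and Trpm6 at 33.6 CPM, with Pvalb at 0. Cldn16 was at 0 in every PMN library. The part of kidney or endothelial RNA in the Hspb1 level was not tested.

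The remaining members also varied without separating by treatment. Hsph1 had 0, 31.1 and 23.3 CPM with glutamine and 54.7, 1.92 and 38.9 CPM with vehicle, where the count of 0 allows a level of up to 0.142 CPM (3 counts, counting error only). Its log2 fold change was -0.81 (SE 2.21), and with 1 library left out it ran from -1.53 without glutamine replicate 2 to -0.20 without vehicle replicate 1. Dnajb1 had 208, 291 and 618 CPM with glutamine and 415, 295 and 404 CPM with vehicle. Glutamine replicate 3, the highest in Hspa1a, was also the highest in Dnajb1, and the Dnajb1 group means of 372 ± 216 and 371 ± 66.8 CPM (SD, n = 3) were nearly equal. Dnaja1 had 289.5, 274 and 207 CPM with glutamine and 365, 289 and 211 CPM with vehicle. Hsf1 had 55.7, 120.5 and 82.3 CPM with glutamine and 46.4, 80.7 and 51.2 CPM with vehicle, a log2 fold change of 0.54 (SE 0.66, interval -1.03 to 2.10) that was 0.17 without glutamine replicate 2 and 0.81 without vehicle replicate 2. Immediate-early genes summed to 25593, 26382 and 33246 CPM with glutamine and 21363, 18840.0 and 20681 CPM with vehicle. Of these 15 genes 14 were above 0, and 4 were higher at an unadjusted p below 0.05, as 2.04% of all genes tested were. These sums did not overlap between treatments, and whether cell handling had a part in the member levels was not tested.

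**Figure D4:**
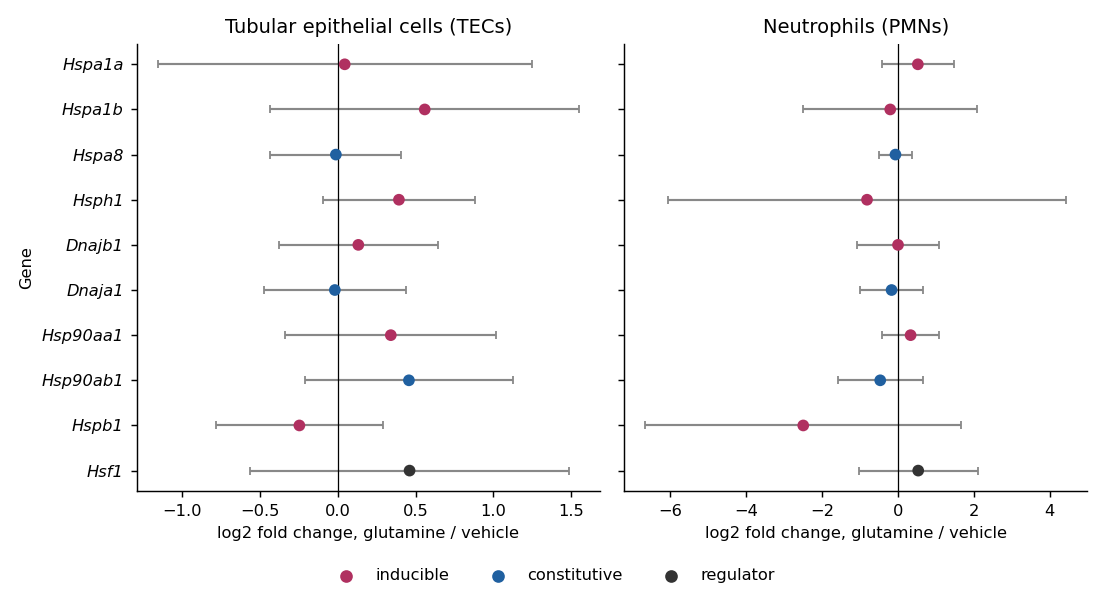
Log2 fold change of each member, glutamine over vehicle, in TECs (left) and PMNs (right) from edgeR with 3 libraries per group. Bars are 95% intervals and colors mark inducible, constitutive and regulator members. All 20 intervals include 0, and the horizontal scale in PMNs is wider.

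The wider chaperone network was examined as 10 lists with 94 genes outside the 10 members, of which 88 were tested in TECs. edgeR called none of them. DESeq2 called none of the 85 to which it gave an adjusted p, beside 1.91% of all genes, and limma-voom none of 88. By edgeR 9 had an unadjusted p below 0.05, and 8 of these were lower with glutamine. Among all genes tested, 12.7% had such a p and 5.51% had such a p and were lower. The 9 of 88 lie below the share for both directions, and the 8 of 88 that were lower lie above the share for that direction, with no test of either. The subunits of the TRiC/CCT chaperonin, the ring that folds actin and tubulin, were below 0 for 8 of 8 genes under TMM and each of the 3 other scalings, with a median log2 fold change of -0.35. Of all genes tested, 49.4% were below 0. Among the 8 subunits 3 had an unadjusted p below 0.05. Cct5 had 133, 118 and 137 CPM with glutamine and 218, 179.9 and 179.8 CPM with vehicle (log2 fold change -0.58, SE 0.19, edgeR unadjusted p = 0.012, adjusted p = 0.265). Of 21 co-chaperones 17 were below 0, with a median of -0.18, and 2 had an unadjusted p below 0.05. Under the scaling without predicted and receptor genes, 14 of them were below 0.

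The other related genes with the smallest p in TECs were Cacybp, Dnaja3, Pfdn4 and Dnaja4. Cacybp, an adaptor of the HSP90 and ubiquitin systems, had 14.2, 18.9 and 17.7 CPM with glutamine and 38.5, 35.2 and 25.6 CPM with vehicle (log2 fold change -0.97, SE 0.26, edgeR adjusted p = 0.218). The mitochondrial J-domain protein Dnaja3 had 12.9, 9.44 and 9.87 CPM with glutamine and 21.7, 25.3 and 16.7 CPM with vehicle (log2 fold change -0.98, SE 0.29, edgeR adjusted p = 0.243). The prefoldin subunit Pfdn4, part of the complex that hands actin and tubulin to TRiC, had 18.6, 19.3 and 18.5 CPM with glutamine and 27.2, 34.2 and 33.6 CPM with vehicle (log2 fold change -0.75, SE 0.23, edgeR adjusted p = 0.245). The groups of these 3 genes did not overlap, which 18.8% of all genes tested showed, and they were named for their small p. Dnaja4, a J-domain protein that stress can induce, had 0.841, 6.83 and 3.07 CPM with glutamine and 0.395, 0.269 and 1.12 CPM with vehicle, from 3 to 34 counts (log2 fold change 2.55, SE 0.94, edgeR adjusted p = 0.306).

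Of the 14 other targets of HSF1 on the list, such as Bag3, Stip1 and Hspd1, 11 were below 0 in TECs with a median of -0.16, and 2 had an unadjusted p below 0.05, both lower. These 2, Cacybp and Stip1, are the same genes counted among the co-chaperones. Over all genes tested, 49.4% were below 0, 12.7% had such a p and 5.51% were lower at such a p. With scaling factors computed without predicted, Rik and sensory receptor genes, 8 of the 14 were below 0. Chaperones of the endoplasmic reticulum were above 0 for 8 of 14 genes, with a median of 0.08, and none had an unadjusted p below 0.05. The mitochondrial chaperones were below 0 for 6 of 9 genes, and 1 had an unadjusted p below 0.05.

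**Figure D5:**
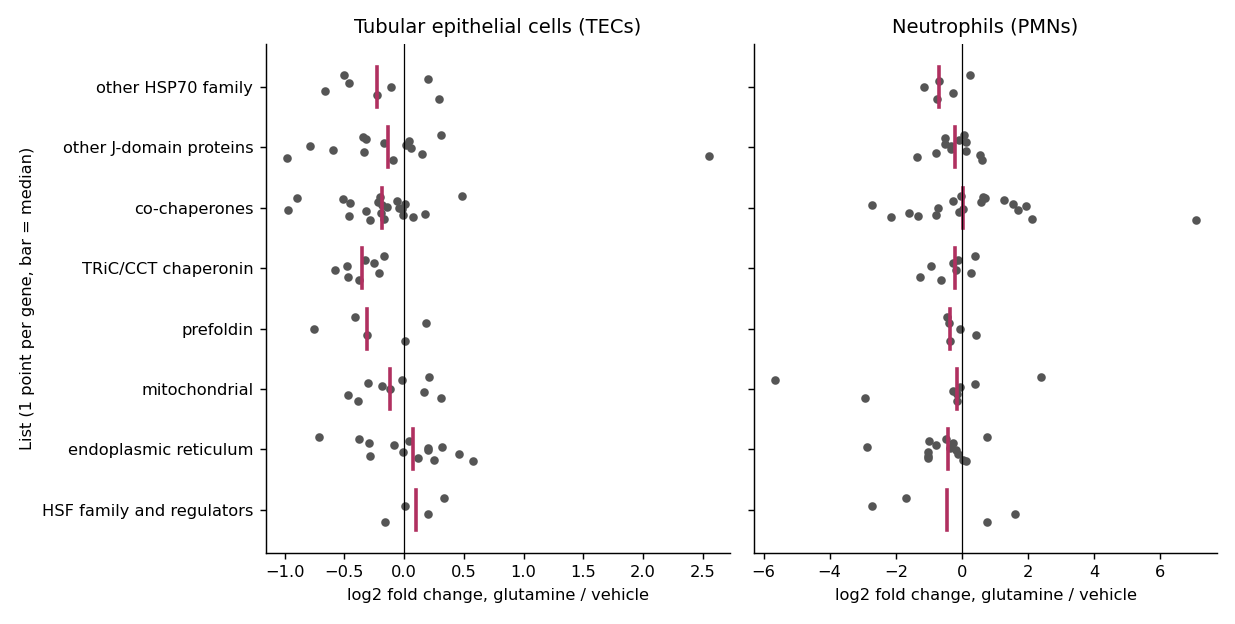
Log2 fold change, glutamine over vehicle, of the related genes tested in TECs (left) and PMNs (right), 1 point per gene with a bar at the median of its list. In TECs all 8 TRiC/CCT subunits lie below 0, and in PMNs a single co-chaperone, Ahsa1, lies beyond 7 with the scale widened accordingly.

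In PMNs 77 of the 94 related genes were tested, 28 were above 0 and 49 below, edgeR and limma-voom called none, and by edgeR 3 had an unadjusted p below 0.05, beside 3.42% of all genes tested. These 3, each higher with glutamine, were named for their small p. Their groups did not overlap, which 10.5% of all genes tested showed. Ahsa1 (AHA1), which activates the ATPase of HSP90, had 72.8, 48.6 and 136 CPM with glutamine and 1.15, 0 and 0.714 CPM with vehicle. The vehicle libraries held 23, 0 and 15 counts of it and the glutamine libraries 1382, 1030 and 2719. The fitted log2 fold change was 7.10 (SE 1.95, edgeR unadjusted p = 0.00862, adjusted p = 0.852). DESeq2 called it, at 7.04 (SE 1.51, DESeq2 adjusted p = 0.000394). It was the 1 gene called among the 72 related genes to which DESeq2 gave an adjusted p, beside 2.73% of all genes. limma-voom did not call it (smallest limma-voom adjusted p of the related genes 0.223). Fkbp5 (FKBP51), a steroid receptor co-chaperone, had 87.8, 136 and 199 CPM with glutamine and 17.99, 40.1 and 52.9 CPM with vehicle (log2 fold change 1.93, SE 0.69, edgeR adjusted p = 0.99996). Cdc37, which brings kinases to HSP90, had 141, 159 and 65.7 CPM with glutamine and 40.6, 32.2 and 39.1 CPM with vehicle (log2 fold change 1.71, SE 0.64, edgeR adjusted p = 0.99996). The list of co-chaperones as a whole had 10 of 19 genes above 0 and a median of 0.04. Under RLE scaling 9 of 19 were above 0. Chaperones of the endoplasmic reticulum were above 0 for 3 of 14 genes in PMNs, with a median of -0.43, and for 2 of 14 under RLE scaling. The other HSP70 genes were above 0 for 1 of 5 genes with a median of -0.69, and the TRiC/CCT subunits for 2 of 8 with a median of -0.22. None of the genes on these 3 lists had an unadjusted p below 0.05 in PMNs.

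The next smallest p-values belonged to Lonp1, a mitochondrial protease, and Cct6a. Lonp1 had 1.79, 0 and 0 CPM with glutamine and 1.65, 70.4 and 19.6 CPM with vehicle (edgeR unadjusted p = 0.0984). Cct6a had 62.0, 90.1 and 62.9 CPM with glutamine and 130.1, 182 and 96.9 CPM with vehicle (log2 fold change -0.93, SE 0.52, edgeR unadjusted p = 0.119), and in TECs it was at -0.48 (SE 0.20, edgeR unadjusted p = 0.0315).

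The study followed Tgm2, a transglutaminase, and Ask1 (Map3k5), a stress kinase, together with HSP70 protein. In TECs Tgm2 had 173, 189 and 191 CPM with glutamine and 219, 232 and 218 CPM with vehicle, groups that did not overlap, as in 18.8% of all genes (log2 fold change -0.27, SE 0.18, edgeR adjusted p = 0.545). Map3k5 had 138, 122 and 126 CPM with glutamine and 46.5, 52.6 and 66.5 CPM with vehicle (log2 fold change 1.22, SE 0.21, edgeR adjusted p = 0.128). Neither passed the threshold in edgeR or limma-voom, while DESeq2 called Map3k5 in TECs (log2 fold change 1.22, SE 0.24, DESeq2 adjusted p = 0.000147) and not Tgm2 (DESeq2 adjusted p = 0.571). Hspa1a, the HSP70 gene beside them, had the value of 0.04 given above. In PMNs the log2 fold changes were 0.88 (SE 0.40) for Tgm2 and 1.43 (SE 0.94) for Map3k5.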

How the data were processed

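Poly(A) RNA of sorted cells was sequenced as single 50-base reads. Per the submitters' processing notes, reads were trimmed with Trim Galore 0.6.4 and quantified with Salmon 1.0.0, with mm10 named as genome build. The authors deposited these values as estimated counts for each gene symbol, without scaling. The annotation release was not given in the sources used here. Spreadsheet software had altered the PMN table: 3.20% of its cells carried extra points and 0.391% had become dates, and these were turned back into numbers. It was planned as plain counts and tested as estimated counts after this step. It holds 2 columns per library (r of 0.993 to 0.995 within a library, 0.541 to 0.637 between libraries), which were averaged into 1 replicate.

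Estimated counts were rounded and tested per cell type across the whole table with edgeR 4.0.16 (R 4.3.3): TMM scaling, default expression filter, quasi-likelihood test, and Benjamini-Hochberg adjusted p below 0.05. The SE is the log2 fold change over the square root of F, and intervals use the test's degrees of freedom. DESeq2 1.42.0, limma 3.58.1, other scalings, filters and depths, and fits without single libraries were alternatives. The script was tested on simulated counts. With 3 libraries per group an exact two-sided permutation test cannot give a p below 0.1. GENCODE M21 (GRCm38) gave gene positions, lengths and shared 50-base windows, and all 10 members matched it by symbol. Named genes are the members, the 5 related genes with the smallest p in each cell type, the sort markers, Tgm2 and Map3k5. Ly6g, the remaining sort marker, was at 49.2 to 178 CPM in PMNs and at 0.0896 to 1.81 CPM in TECs. Members and lists were chosen with earlier results of these data known. Protein measurements and reads were not analysed here.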

Additional observations from a re-analysis of the deposited data

How the results depend on the processing

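No member was called under any alternative in either cell type, where the smallest adjusted p was 0.235 in TECs (Hsf1) and 0.670 in PMNs (Hspb1). The count of all genes called did change. In TECs it was 0 in edgeR, 245 with DESeq2 (of 12826 genes with an adjusted p), 425 with no expression filter, and between 0 and 36 when 1 library was left out (36 without glutamine replicate 2 and 4 without vehicle replicate 5). In PMNs it was 0 in edgeR and 304 with DESeq2 (of 11123). The cause was not tested. The direction held under each alternative run for Hsp90aa1, Hsp90ab1, Hspb1, Hsph1 and Hsf1 in TECs, and for Hspa1a, Hsp90aa1, Hsp90ab1, Hsph1 and Hsf1 in PMNs. The values below are log2 fold changes of the other members where the sign turned. In TECs limma-voom put Hspa1a at -0.13, and scaling factors computed without predicted, Rik and sensory receptor genes put Hspa8 at 0.039 and Dnaja1 at 0.031. Without glutamine replicate 2 and vehicle replicate 5, the highest libraries in Hspa1a, left out after seeing the data, Hspa1a was at -0.36, Hspa8 at 0.066, Dnajb1 at -0.12 and Dnaja1 at 0.049. In PMNs limma-voom put Hspa1b at 0.23 and Dnajb1 at -0.12, the sum of Hspa1a and Hspa1b was at 0.50 against -0.20 for Hspa1b alone, and upper-quartile scaling put Hspa8 at 0.00026. Dnajb1, at 0.0037 in PMNs, was at -0.073 with DESeq2, -0.065 with RLE scaling, -0.025 with scaling factors computed without predicted, Rik and sensory receptor genes, -0.047 with no filter and -0.052 with at least 10 counts in every library. With libraries left out, the ranges in TECs were -0.92 to 0.60 for Hspa1a, -0.066 to 1.004 for Hspa1b, -0.088 to 0.11 for Hspa8, -0.12 to 0.25 for Dnajb1 and -0.12 to 0.091 for Dnaja1. In PMNs, where these fits include the one without both vehicle replicates 1 and 2, also chosen after seeing the data, they were -1.14 to 0.64 for Hspa1b, -0.24 to 0.017 for Hspa8, -3.11 to 0.35 for Hspb1, -0.57 to 0.26 for Dnajb1 and -0.36 to 0.27 for Dnaja1. The filter of 10 counts in every library removed Hspb1 and Hsph1 in PMNs. RLE-scaled levels moved by less than 1 SD. With Hspa1a or Hspa1b alone, the log2 difference of the ratio to Hspa8 was -0.074 or 0.53 in TECs, against 0.047 for their sum, and 0.46 or 0.27 in PMNs, against 0.45. Without any 1 library the difference for the sum ran from -0.52 to 0.37 in TECs and from 0.083 to 0.80 in PMNs, and that of Hsp90aa1 to Hsp90ab1 from -0.15 to -0.069 and from 0.41 to 1.33. No paired analysis was possible because number 3 is the only one both TEC groups have, and PMN numbers follow sample order. With the libraries thinned to equal depth, Hsf1 in TECs was at 0.35 against 0.46.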
